A study of Arabidopsis thaliana with 15 samples.

Results

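Sorted provascular cells of the Arabidopsis root were compared with sorted stele cells, both without hormone. The 3 arrays of the ATHB15 control and the 2 arrays of the WOL control were taken by their labels, which is 5 of the 15 Affymetrix ATH1 arrays of the series, each array holding the RNA of 1 sample. ATHB15 cells were protoplasts sorted for pAtHB15:YFP, a reporter that the labels assign to provascular cells, and WOL cells were protoplasts sorted for pWOL:GFP, which the labels assign to stele cells. All roots were 6 days old, were given no brassinolide (BL, a brassinosteroid hormone) in these 5 samples, and were digested with cellulase and pectolyase before sorting. The other arrays, used here only where stated, were WOL cells after 0.5, 1, 2 and 4 h of 10 nM BL (2 arrays each) and ATHB15 cells after 2 h of 10 nM BL (2 arrays).

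The stele is the central cylinder of the root. It holds the pericycle, the procambium or provascular cells, and the xylem and phloem that form from them. Provascular cells are its undifferentiated, dividing cells, while xylem cells thicken and lignify their walls, and the endodermis around the stele lays down the lignified Casparian strip. The promoter of WOL, a cytokinin receptor gene, is active in the stele, and that of ATHB15, a class III HD-ZIP transcription factor gene, in vascular initials and procambium. Each sorted pool is therefore defined by 1 promoter, and the stele pool can include the provascular cells.

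The deposited values are signal intensities. Their trimmed mean, computed here with 2% left out at each end, was 250.0 on every array. The sources used here do not state the scaling. Differences are given as ATHB15 control minus WOL control on the log2(signal + 16) scale, on which the change of a dim gene is understated. They were tested with limma over all 15 arrays, and a probe set was called at a Benjamini-Hochberg adjusted p under 0.05 over the 22746 probe sets tested. The number of arrays limits the precision, and the labels do not say that replicates came from separate cultures, so the p-values reflect the spread between these samples, which may be technical. The labels name no array batch, and each line lies on arrays of its own, so the line, its sorting marker and any difference in handling cannot be told apart. In pooled RNA, fewer cells of a type and less RNA per cell cannot be told apart either.

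The WOL control arrays were unlike each other. Over all probe sets WOL control A and B correlated at 0.932, the ATHB15 control arrays at 0.95 to 0.958, and WOL control B with the ATHB15 arrays at 0.916 to 0.939, against 0.871 to 0.912 for WOL control A. Probe sets called present made up 49.5% to 59.6% of each untreated array. The 3'/5' signal ratio of the actin control probe sets, a measure of RNA and amplification quality, was 28.4 and 48.3 in WOL control A and B, and 26.8, 13.1 and 12.8 in ATHB15 control 1, 2 and 3. It was thus higher on both WOL arrays than on every ATHB15 array. The ubiquitin (UBQ) ratio was also higher on both WOL control arrays, at 5.07 and 7.43 against 4.85, 4.53 and 4.01 in the ATHB15 controls. The GAPDH ratio overlapped, at 2.71 and 4.66 against 3.38, 1.75 and 2.22. A second set of control probe sets gave another order for actin, with 88.4 and 182 in WOL against 194, 142 and 227 in ATHB15. Its UBQ and GAPDH ratios overlapped between the lines. Counts from fits with these ratios as covariates stand beside the results below, and the part of RNA quality in them was not tested further. The sorting genes themselves have no probe set that the annotation names, so the labels could not be checked on them.

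Among the probe sets that passed the test, far more were lower in provascular cells than higher. Over all probe sets the signs were nearly balanced, with 12012 below 0 and 10734 above 0 on the deposited scale, and 15013 above 0 after centring. Of all probe sets 2.91% were called (663), with 611 lower in ATHB15 cells (2.69%) and 52 higher (0.229%). Among these, 331 of the lower and 28 of the higher probe sets match 1 gene, and 278 have no gene listed in the annotation used and are left unnamed. The lower probe sets had a median log2 difference of -2.36, and 144 of them lay beyond -3. The higher ones had a median of 1.42 and reached at most 2.13. The arrays of the lines did not overlap in any of the 663, nor in 31.4% of all probe sets.

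**Figure D1:**
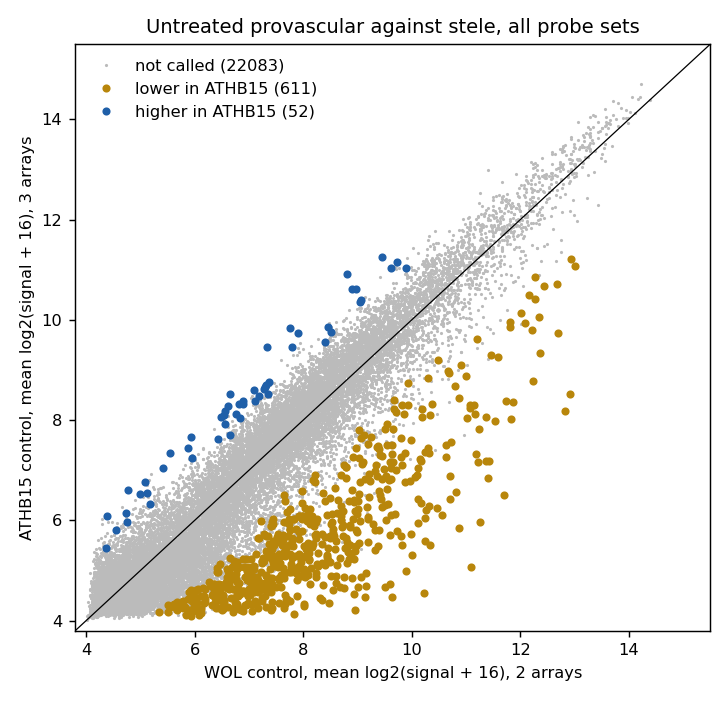
Mean log2(signal + 16) of every probe set in the ATHB15 control (3 arrays, vertical axis) against the WOL control (2 arrays, horizontal axis), with the line of equality. The 611 probe sets called lower lie up to 6.02 log2 units below the line, whereas the 52 called higher lie no more than 2.13 above it.

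The lopsided split depended on the scaling in its size and not in its direction. The median of all probe sets was 0.27 lower in the ATHB15 control as a difference of array medians. With each array centred on its median, 486 probe sets were called, 109 higher (0.479%) and 377 lower (1.66%), so that lower calls fell from 92.2% to 77.6% of all calls. Quantile normalization left 84.7% of 450 calls on the lower side. Of the 663 probe sets, 429 were called after centring as well, 377 lower and 52 higher. Centred values are given beside the deposited ones below, and they are the deposited difference raised by the 0.27 just named.

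WOL control A carried much of the statistical weight. Without it 28 probe sets were called, all lower (0.123%), and without WOL control B 571 were called, 45 higher (0.198%) and 526 lower (2.31%). The signs of all 663 were the same without either array, and the median size was 2.27 with both arrays, 1.94 without A and 2.55 without B. WOL control A lay above B in 473 of the 611 lower probe sets. With the actin ratio as a covariate 78 probe sets were called, all lower (0.343%), and the 663 signs were again the same. With the ratio from the other actin control probe sets 225 were called, 216 lower and 9 higher.

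**Figure D2:**
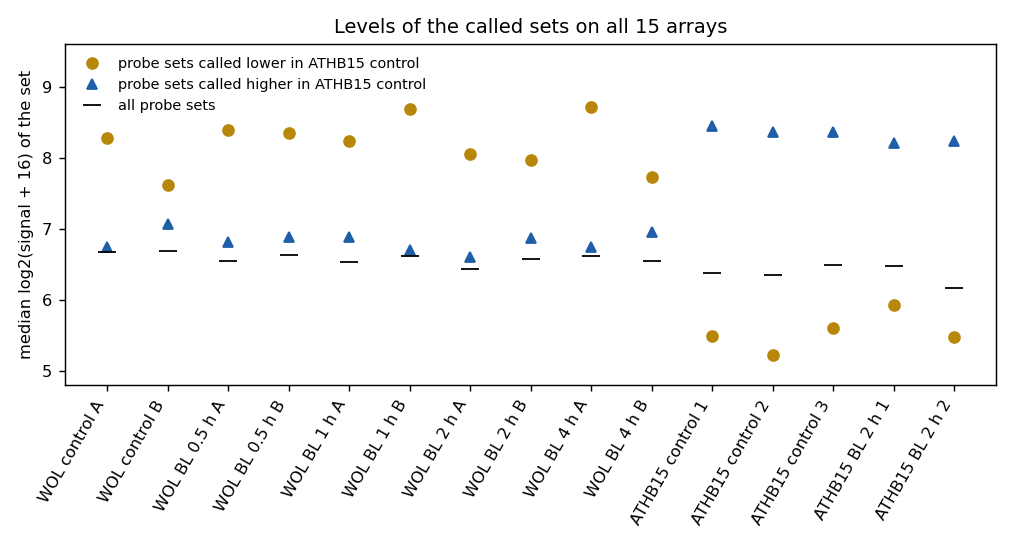
Median log2(signal + 16) of the 611 probe sets called lower (circles), the 52 called higher (triangles) and all probe sets (dashes) on each of the 15 arrays. The lower set sits at 7.62 to 8.71 on the WOL arrays and at 5.22 to 5.93 on the ATHB15 arrays, and WOL control B at 7.62 is the lowest of the WOL arrays.

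Detection calls show how much of the lower set was near the floor. Of the 611, 303 were called absent on all 3 ATHB15 control arrays, and 151 of these were present on both WOL control arrays. Over all 22746 probe sets, 269 were present on both WOL and absent on all 3 ATHB15 control arrays. The reverse pattern held for 143, and 7420 were absent on all 5 arrays. Among the 611 lower probe sets, 113 were present on all 5 arrays. Of the 52 higher probe sets, 37 were present on all 5 arrays and 14 were absent on both WOL arrays.

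Class III peroxidases made up 8 of the 15 named genes that were lowest in provascular cells. These secreted enzymes oxidise phenolics in the wall, among them the monolignols that polymerise into lignin. Of 73 loci listed for the family, 55 have a probe set. Of these, 16 were lower (29.1%, against 2.69% of all probe sets) and none higher. The median over the 55 was -0.64 on the deposited scale, -0.37 after centring and -0.33 after quantile normalization, against -0.03, 0.24 and 0.09 over all probe sets. The family list was drawn up after the largest differences were seen, so its count is a description. Where a gene is given by its locus number, its family and role come from general knowledge of Arabidopsis genes and not from the annotation used, which lists no description.

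AT5G17820 gave signals of 2327.4 and 372.7 in WOL control A and B and of 3.3, 16.7 and 36.3 in the ATHB15 controls, where it was absent throughout. Both WOL signals lay above all ATHB15 signals, as the selection of named genes required, though WOL A was the higher by far. The difference was -4.89 ± 0.67 (SE; -4.62 centred; limma adjusted p = 0.00231), which is at least 26.1-fold, and at least 10.6-fold without WOL control A. AT5G66390 (PRX72) gave 2219.3 and 733.7 in WOL and 41.1, 4.4 and 67.3 in ATHB15, a difference of -4.82 ± 0.79 (-4.54 centred; limma adjusted p = 0.0054). AT5G51890 gave 2452.1 and 1108.8 against 86.9, 47.4 and 80.5, a difference of -4.28 ± 0.46 (-4.01 centred; limma adjusted p = 0.000435). It was 1 of the 2 peroxidases still called without WOL control A (limma adjusted p = 0.0236), and AT3G01190 was the other (limma adjusted p = 0.043).

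The remaining peroxidases among the 15 lowest were AT2G39040, AT3G01190, AT1G30870, AT4G30170 and AT5G64100, with log2 differences between -4.16 and -4.65. The 8 lower members outside that group ranged from -1.88 (AT5G64120) to -3.60 (AT1G44970). WOL control A was above B for all 16, and 10 of the 16 were absent on all 3 ATHB15 arrays. The members not called reached 1.03 at the upper end (AT5G06730, limma adjusted p = 0.459), and 22 of the 55 were absent on all 5 arrays. Of these 16, 14 were also called lower after centring and 6 with the actin ratio as a covariate.

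**Figure D3:**
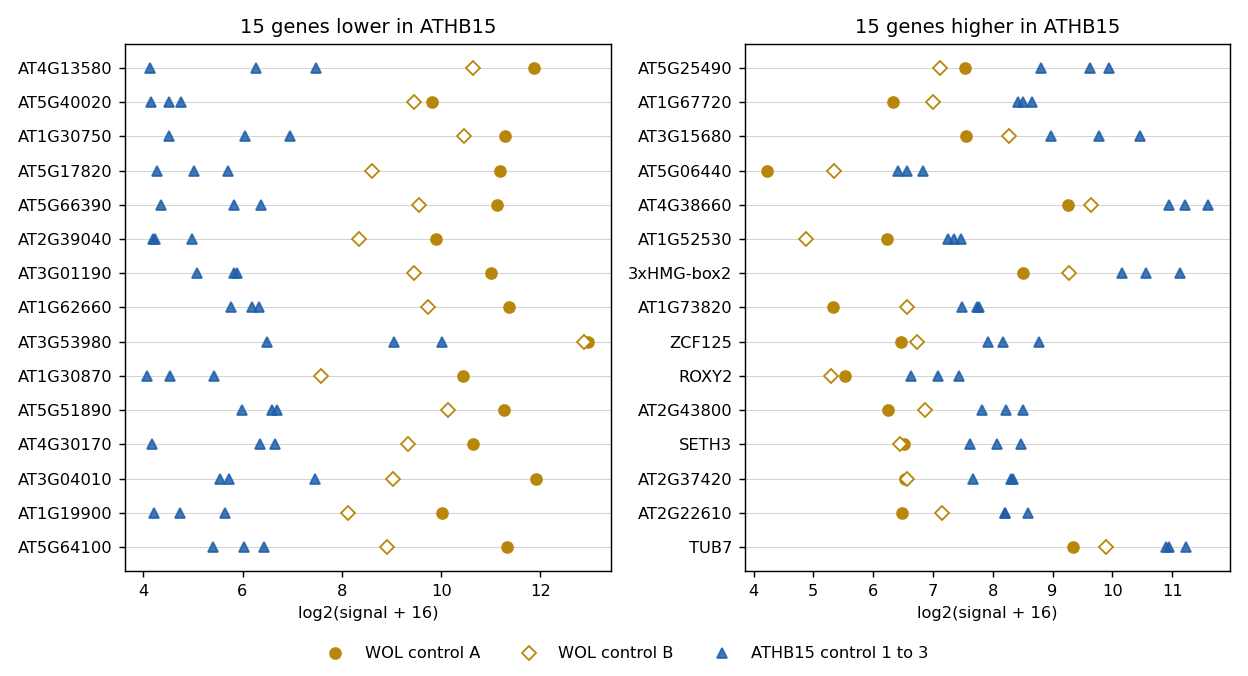
Log2(signal + 16) on each untreated array for the 15 genes with the largest fall and the 15 with the largest rise among called probe sets that match 1 gene. WOL control A and B are shown as circles and open diamonds, and the 3 ATHB15 controls as triangles. The 30 genes were chosen among probe sets whose arrays do not overlap between the lines. For the lower genes WOL control B usually lies between A and the ATHB15 arrays.

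Dirigent proteins guide the coupling of phenoxy radicals in lignan and lignin formation, and one member organises the Casparian strip. Of 14 measured, 4 were lower (28.6%, against 2.69% of all probe sets) and none higher. The median of the 14 was -0.58 (-0.31 centred, -0.24 by quantile). The gene with the largest named fall belonged here. AT4G13580 gave 3748.6 and 1580.8 in WOL and 162.9, 1.7 and 60.8 in ATHB15, a difference of -5.30 ± 0.87 (-5.02 centred; limma adjusted p = 0.00542). The ATHB15 arrays spread over a wide range for this gene, which was present on 1 of the 3. None reached the lower WOL array, as the selection of named genes required. AT2G39430, AT3G13650 and AT2G21100 had log2 differences of -3.2, -3.13 and -2.57, and all 4 were also lower after centring. None of the 4 was called without WOL control A.

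A few called genes with known roles in phenolic or wall chemistry were picked after their values were seen, and they stand for no list. CCR2 (AT1G80820), a cinnamoyl-CoA reductase of the monolignol pathway, had a difference of -2.77 ± 0.67 (limma adjusted p = 0.0407; centred -2.50, adjusted p = 0.0571). GT72B1 and UGT72E3, of the glucosyltransferase group that includes the monolignol glucosylating enzymes, had differences of -2.42 and -2.37, and neither passed after centring (limma adjusted p = 0.0637 and 0.065). IRX15-L, which acts in xylan synthesis of secondary walls, gave 334.8 and 183.1 in WOL against 28.6, 52.2 and 4.4 in ATHB15, a difference of -2.74 ± 0.53 (-2.47 centred; limma adjusted p = 0.014). Its relative IRX15 was called with -2.37 but was absent on all 5 arrays, so no fold is given.

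In families that loosen or modify the wall few members were called. These families were collected by gene symbol, so they hold only the members that the annotation names. The shares called lower among xyloglucan enzymes, expansins and TBL proteins were above the 2.69% of all probe sets, on 1 or 2 members each. Of the 9 xyloglucan endotransglucosylase/hydrolases (XTH), which cut and rejoin xyloglucan, XTH21 and XTH18 were lower (22.2%) with -2.89 and -2.56. The family median was -0.82 (-0.55 centred). Of 18 expansins, EXPA8 alone was called (5.56%), and it was absent on all 3 ATHB15 arrays (-2.52 ± 0.50; limma adjusted p = 0.0158). Among the expansins 7 members lay above 0. Of 22 TBL proteins, a family of wall polysaccharide O-acetyltransferases, TBL41 and TBL30 were lower (9.09%; -3.18 and -2.38), the second not after centring (limma adjusted p = 0.0585), and 8 members lay above 0. The pectin methylesterase PMEPCRF was lower by 2.64 log2 units, and none of 15 glycosyl hydrolase 9 cellulases was called.

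Lipid-transfer-like proteins, small secreted proteins of which some serve cutin, suberin and membrane lipid traffic, had 5 lower members of 45 (11.1%) and none higher. The share called lower over all probe sets was 2.69%. AT3G53980 was the brightest of the named lower genes, with 7986.5 and 7483.2 in WOL and 1026.9, 74.4 and 510.5 in ATHB15. WOL arrays were close to each other and the ATHB15 arrays were far apart, and the difference was -4.40 ± 1.02 (-4.13 centred; limma adjusted p = 0.0325). AT3G22620, AT3G22570, AT1G48750 and AT4G22460 had log2 differences of -4.05, -3.56, -3.31 and -2.92. All 5 stayed lower after centring, and 30 of the 45 were absent on all 5 arrays.

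Thaumatin-like proteins, related to the pathogenesis-related proteins of family 5, moved both ways. AT5G40020 had the smallest adjusted p of the named genes, with 880.7 and 685.5 in WOL and 11.2, 1.9 and 6.9 in ATHB15. Both WOL arrays were alike, and all ATHB15 arrays were absent. The difference was -5.15 ± 0.39 (-4.88 centred; limma adjusted p = 5.36e-05), at least 23.1-fold, and it was called without WOL control A (limma adjusted p = 0.00432). AT1G77700 and AT5G02140 were lower by 3.86 and 3.87. In AT4G38660 the order was reversed, with 598.8 and 779.9 in WOL and 1948.1, 3101.6 and 2369.3 in ATHB15, a rise of 1.81 ± 0.33 (2.08 centred; limma adjusted p = 0.00974). The median of the 18 members was -0.22 deposited and 0.05 centred, so that the family as a whole has no direction that holds under both scalings.

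**Figure D4:**
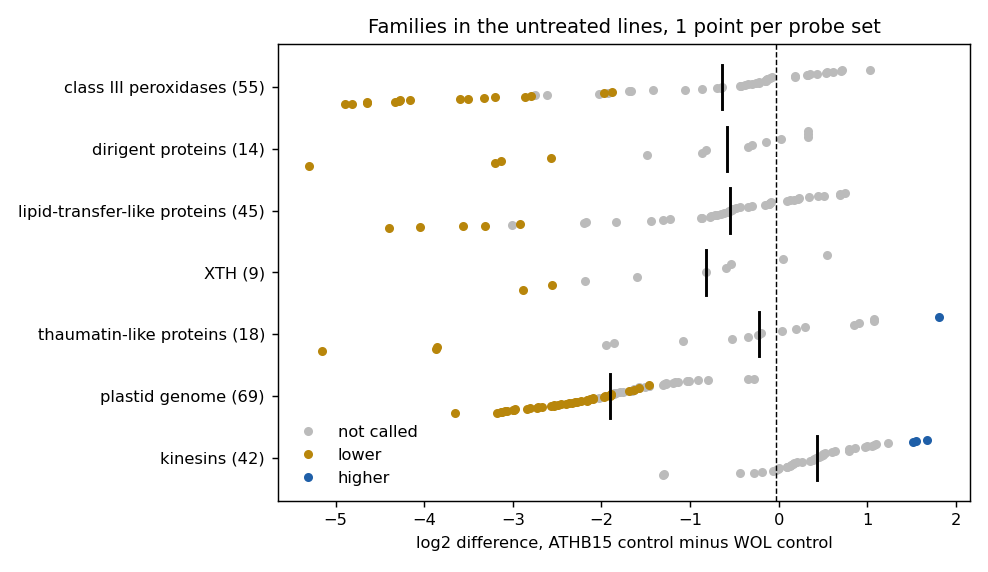
Log2 difference (ATHB15 control minus WOL control, deposited scale) of each probe set of 7 families, with the number of probe sets in parentheses, the family median as a bar and the median of all probe sets (-0.03) as the dashed line. Peroxidases spread from 1.03 to -4.89 with 16 called lower, transcripts of the plastid genome lie below 0 throughout, and kinesins lie mostly above 0 with 3 called higher.

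Transcripts of the plastid genome were lower as a body. Of 69 probe sets all 69 lay below 0 on the deposited scale and after centring. Of these, 41 were called lower (59.4%, against 2.69% of all probe sets) and none higher. The median of the 69 was -1.90 (-1.63 centred, -1.88 by quantile). In contrast with the peroxidases, the WOL arrays were alike here, with array medians of 9.39 and 9.41 for the set, against 6.66, 6.83 and 7.34 in the ATHB15 controls. The called members span the photosystems, the NADH dehydrogenase-like complex, the plastid RNA polymerase and the plastid ribosome. Plastid genes are transcribed together in long units, so the members are not independent of each other.

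Transcripts of ndhD, an NADH dehydrogenase-like subunit, gave 1011.4 and 1133.6 in WOL and 107.2, 98.1 and 106.9 in ATHB15. The groups were tight and far apart, with a difference of -3.18 ± 0.34 (-2.91 centred; limma adjusted p = 0.000435), and the call held without WOL control A (limma adjusted p = 0.0165). The photosystem II gene psbB gave 320.2 and 572.8 against 57.0, 14.2 and 4.1, a difference of -3.65 ± 0.57 (limma adjusted p = 0.00419). For rbcL, the large subunit of Rubisco, 784.2 and 1090.1 stood against 128.3, 125.0 and 194.5, a difference of -2.53 ± 0.39 (limma adjusted p = 0.00385). For rpoC1, a plastid RNA polymerase subunit, 1114.1 and 1154.4 stood against 93.9, 141.5 and 159.7, a difference of -2.99 ± 0.46 (limma adjusted p = 0.00409). The median of the 69 was -2.02 without WOL control A and -1.94 without B, yet only 4 were called without A and 19 without B. Of the 41, 30 were also called lower after centring and 4 with the actin ratio.

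Mitochondrial transcripts pointed the same way with smaller values. Of 22 probe sets 21 lay below 0, and the median was -1.29 (-1.02 centred). Those of cox1, ccb203, nad5 and nad9 were called lower (18.2%, against 2.69% of all probe sets). The oxidase subunit gene cox1 gave 1995.5 and 2026.7 in WOL and 304.5, 506.0 and 620.7 in ATHB15, a difference of -2.10 ± 0.40 (limma adjusted p = 0.014).

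The ER body is an organelle of Brassicaceae that stores a defence beta-glucosidase, and 4 genes linked to it were lower. PYK10, that beta-glucosidase, gave 5207.2 and 2215.2 in WOL against 554.8, 171.2 and 336.2 in ATHB15, a difference of -3.35 ± 0.55 (-3.08 centred; limma adjusted p = 0.0054). The jacalin lectins JAL33 and JAL34 and the ER body protein NAI2 were lower by 1.95, 1.96 and 1.93 log2 units, and of these 3 JAL33 alone passed after centring (limma adjusted p = 0.0306). After 2 h of BL the difference between the lines was not called for any of the 4, at -1.13 for PYK10, 0.35 for JAL33, 0.65 for JAL34 and 0.81 for NAI2. The change of the line difference itself was not called for any of them. These genes were grouped after their values were seen. Of the 4 jacalin lectins named by symbol 2 were lower, and 1 lay above 0. Of 21 beta-glucosidases so named 1 was lower (4.76%, against 2.69% of all probe sets).

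Further lower genes had roles in metabolism, redox and signalling. AT1G62660, a vacuolar invertase that splits sucrose, gave 2633.2 and 838.3 in WOL and 57.4, 38.7 and 64.1 in ATHB15, a difference of -4.46 ± 0.53 (-4.18 centred; limma adjusted p = 0.00101). It was called without WOL control A (limma adjusted p = 0.038). The methionine sulfoxide reductases MSRB9, MSRB5 and MSRB6 were lower by 3.69, 2.57 and 2.48 log2 units, the last not after centring (limma adjusted p = 0.0513). MT1C, a metallothionein, was lower by 4.02. The calmodulin-like CML30 was lower by 3.39 ± 0.37 (limma adjusted p = 0.000463) and absent on all 3 ATHB15 arrays, and it too was called without WOL control A (limma adjusted p = 0.0236). The defensin-like gene LCR68, the autophagy gene ATG8H and the ubiquitin ligase gene PUB22 had differences of -3.04, -2.35 and -2.84. Each was the only one called among the members named by symbol, which were 8 LCR (12.5%), 8 ATG (12.5%) and 9 PUB genes (11.1%). Over all probe sets 2.69% were lower.

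The last genes of the lowest 15 were AT1G30750 at -5.03, AT3G04010, a glycosyl hydrolase of family 17, at -4.24, and AT1G19900, related to glyoxal oxidases, at -4.19. Berberine bridge enzyme-like oxidases had 2 lower members of 22 (9.09%, against 2.69% of all probe sets), AT5G44380 at -4.12 and AT1G30700 at -3.36. Of 47 UDP-glycosyltransferases, UGT72E3 and UGT71C1 were lower (4.26%) and neither was after centring, and of 26 cytochromes P450, CYP71B6 was lower (3.85%). Both shares are near the 2.69% of all probe sets.

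The higher side held genes of the cytoskeleton and of mitosis among its 15 named genes. Kinesins, the motors that move along microtubules and several of which build the spindle, had 3 higher members of 42 and none lower. The share called higher was 7.14%, against 0.229% of all probe sets. The kinesin median was 0.43 (0.70 centred, 0.49 by quantile), and 34 of the 42 probe sets lay above 0. ZCF125 (AT1G59540) gave 72.8 and 90.8 in WOL and 421.7, 224.9 and 272.2 in ATHB15, a difference of 1.68 ± 0.39 (1.95 centred; limma adjusted p = 0.0343). AT2G37420 gave 76.5 and 79.2 in WOL and 301.1, 186.6 and 307.2 in ATHB15, a difference of 1.55 ± 0.34 (1.82 centred; limma adjusted p = 0.0272). AT2G22610 was higher by 1.52 ± 0.36 (1.79 centred; limma adjusted p = 0.037). Non-overlap of the groups was a condition for naming these 3. The kinesin list, like that of the peroxidases, was drawn up after the largest differences were seen.

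3xHMG-box2, a chromatin protein that binds mitotic chromosomes, gave 345.9 and 603.7 in WOL and 1131.5, 1500.6 and 2215.3 in ATHB15, a difference of 1.73 ± 0.39 (2.00 centred; limma adjusted p = 0.0295). TUB7, a beta-tubulin, gave 636.4 and 936.7 in WOL and 1901.4, 1950.8 and 2399.6 in ATHB15, a difference of 1.41 ± 0.33 (1.68 centred; limma adjusted p = 0.0355). All ATHB15 arrays were above both WOL arrays for each gene, which was a condition of their selection. The other 6 tubulins that the annotation names by symbol were not called, from -0.98 (TUB1) to 0.88 (TUA6). AT2G43800, a formin, which nucleates actin filaments, was higher by 1.62 ± 0.39 (limma adjusted p = 0.0408).

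The 5 core histones and 3 cell division genes that could be measured lay on the same side without passing. All 5 core histones named by symbol had values above 0, from 0.28 (HTB4) to 1.22 (HTB2). Their median was 0.64 (0.92 centred), against -0.03 (0.24 centred) over all probe sets. None of these histones was called. Of a cell division list of 33 genes, 3 have a named probe set. The Aurora kinases AUR1 and AUR2 had 0.74 each, and PRL (AT4G02060), the MCM7 subunit of the replicative helicase, 0.79 (limma adjusted p = 0.34, 0.239 and 0.289). Both sets were nearer to 0 without WOL control A. The histone median was 0.34 without A and 1.02 without B, and that of the 3 cell division genes 0.38 and 1.1.

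Among the remaining higher genes were a pair of NZF zinc finger proteins. AT5G25490 had the largest rise of the named genes, with 169.0 and 123.2 in WOL and 432.4, 771.5 and 969.6 in ATHB15, a difference of 2.13 ± 0.41 (2.40 centred; limma adjusted p = 0.0135). AT3G15680 gave 171.6 and 294.4 against 489.3, 859.2 and 1395.2, a difference of 1.82 ± 0.38 (2.10 centred; limma adjusted p = 0.0215). AT1G67720, a leucine-rich repeat receptor kinase, gave 64.1 and 111.4 against 345.8, 326.6 and 386.7, a difference of 1.87 ± 0.32 (2.14 centred; limma adjusted p = 0.00619). For each of these genes the ATHB15 arrays lay wholly above the WOL arrays, which the selection of named genes required.

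ROXY2, a CC-type glutaredoxin known from anther development, was absent on both WOL arrays and at least 2.94-fold higher in ATHB15 cells (1.64 ± 0.38; limma adjusted p = 0.0316). AT5G06440 and AT1G52530 were also absent on both WOL arrays, and were at least 2.74-fold and 2.85-fold higher. SETH3, a sugar phosphate isomerase, was higher by 1.58 ± 0.30 (limma adjusted p = 0.013), and AT1G73820 by 1.72 ± 0.40 (limma adjusted p = 0.0348). Outside the 15, the chaperone gene Hsp70-2 and the glycerol-3-phosphate dehydrogenase gene GPDHp were higher by 1.39 and 1.16 (limma adjusted p = 0.0494 and 0.0405). All 15 named higher genes and all 15 named lower genes were still called after median centring. Without WOL control A none of the 15 higher and 4 of the 15 lower were, and with the actin ratio none and 8 were.

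The markers of cell types covered little of what was sought, since 33 of 275 listed genes have a named probe set, and no xylem marker of 27 does. In the list for vascular initials and procambium, PHV, a class III HD-ZIP gene, gave 535.2 and 653.3 in WOL and 1110.6, 882.4 and 1175.2 in ATHB15, a difference of 0.81 ± 0.38 that was not called (limma adjusted p = 0.324). LHW, a transcription factor gene of vascular cell divisions, was at 0.05, and AT5G02460 at 0.69, neither called. None of 4 phloem genes (SWEET11, CLE41, CLE44, OPS) and none of 3 pericycle and lateral root genes (LBD16, LBD29, CR4) was called.

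Of 5 endodermis and cortex genes 1 was called. GSO1, a receptor kinase needed for a sealed Casparian strip, gave 497.5 and 172.7 in WOL and 40.8, 5.1 and 42.3 in ATHB15, a difference of -2.92 ± 0.65 (-2.65 centred; limma adjusted p = 0.0272). It was not called without WOL control A (limma adjusted p = 0.315). JKD, AT1G14580 and AT1G62500, from the same list, were absent on all 5 arrays. AT1G09750, the other member, was at 0.65 (0.92 centred; limma adjusted p = 0.482), present on 1 ATHB15 array and absent on both WOL arrays. Of the 3 epidermis and root hair genes, EXPA7 and EXPA18 had -1.97 and -2.06 with WOL signals of 294.6 and 304.1 on array A and 88.5 and 77.8 on array B, and TRY was absent on all 5. None of the 3 was called in the untreated lines (limma adjusted p = 0.217, 0.141 and 0.633). These root hair genes were higher on WOL control A than on B, as were the 16 lower peroxidases and 473 of all 611 lower probe sets. The part of other cell types in the peroxidase counts was not tested. After 2 h of BL, EXPA7 and EXPA18 were called lower, at -3.18 and -2.91 (limma adjusted p = 0.0208 and 0.0181), and TRY was not called.

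Few of the listed hormone and stress genes could be measured, and few of those were called. Named probe sets cover 4 of 22 auxin, 1 of 21 brassinosteroid, 2 of 22 cytokinin and 2 of 33 stress and wounding genes. The auxin conjugating enzyme gene GH3.1 was lower by 1.43 ± 0.35 (limma adjusted p = 0.0418; centred -1.16, adjusted p = 0.1), and GH3.3, IAA29 and WES1 were not called. The brassinosteroid receptor gene BRL1, the only measured member of its list of 21, was at -0.45 (limma adjusted p = 0.635). Neither the type-A response regulators ARR15 and RR16 nor the stress genes WRKY53 and STZ were called, and STZ lay at -0.02. None of the 7 Aux/IAA genes, 6 WRKY genes or 6 type-A response regulators named by symbol was called. Of 11 tau glutathione transferases so named, GSTU27 was lower by 1.87 (limma adjusted p = 0.0358, after centring 0.0783).

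The same lines were compared after 2 h of BL, on 4 arrays whose signals do not enter the untreated log2 differences. Both tests came from the same limma fit over all arrays and share its spread for each probe set. A probe set with a small shared spread is favoured in both tests, so the repeated calls below are not independent of the untreated calls. The signs after BL come from the 4 arrays alone. In the comparison after BL 15% of probe sets were called, 1513 higher (6.65%) and 1902 lower (8.36%). Of the 611 probe sets lower in untreated cells, 406 were lower after BL (66.4%) and 583 lay below 0 (95.4%, against 48.5% of all probe sets). Of the 52 higher, 34 were higher after BL (65.4%) and 50 lay above 0. Both comparisons differ in the sorted line in the same way, and 2 of the 663 were called the opposite way.

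**Figure D5:**
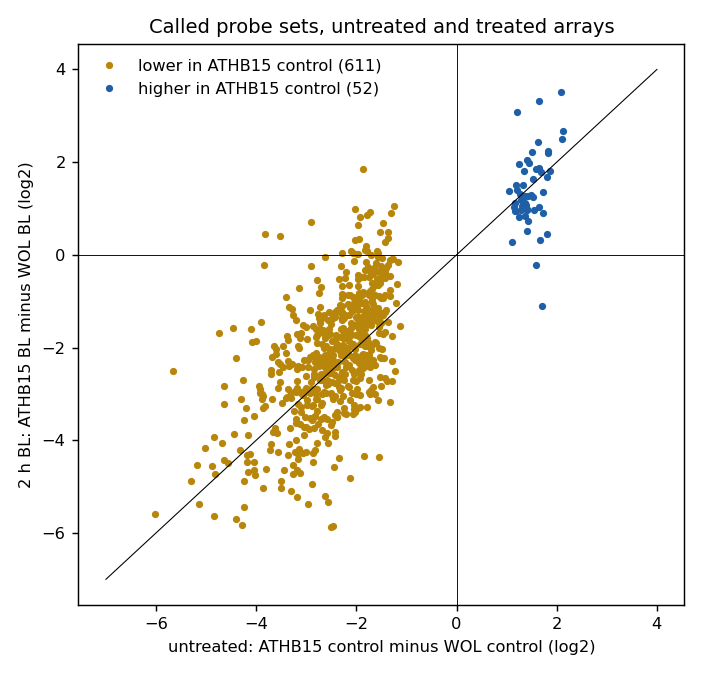
Log2 difference between ATHB15 and WOL cells after 2 h of BL (vertical axis, 2 arrays against 2) against that in untreated cells (horizontal axis, 3 against 2) for the 663 called probe sets, with the line of equality. Of these 633 have the same sign in both, and the probe sets with the largest falls untreated lie far below 0 after BL too.

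By family, 12 of the 16 lower peroxidases, all 4 lower dirigent proteins, all 5 lower lipid-transfer-like proteins and 25 of the 41 lower plastid transcripts were lower after BL as well. Of the 3 higher kinesins 2 were higher after BL, and AT2G37420 was not called (0.97, limma adjusted p = 0.1). Over all 42 kinesin probe sets 10 were higher and 2 lower after BL, with a median of 0.68. Of the 7 tubulins 2 were lower and none higher after BL, with a median of -0.35. TUB7 was not called there (0.51, limma adjusted p = 0.401), and SETH3 lay at -0.21. AT5G51890 had -5.82 after BL, AT5G40020 -5.38 and AT5G25490 2.68, each called (limma adjusted p = 5.07e-05, 2.96e-05 and 0.00181). The WOL BL arrays also bear on the level of single genes: AT5G17820 had a median signal of 3130.8 over the 8 WOL BL arrays, from 1276.0 to 4896.3, so that WOL control B at 372.7 lay below all of them. The difference between the lines itself changed with BL for 29 probe sets (0.127%), and none of the 663 was among them.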

How the data were processed

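RNA was amplified with the Affymetrix 2-cycle protocol, per the labels' protocols. The authors deposited signal intensity on a linear scale, with a detection p-value and a detection call (the other kind of column) for each probe set, per the file headers. No source used here names the software that made them. Of 22810 probe sets, 64 control probe sets were left out. The annotation gives 1 gene to 13513 probe sets, several to 503 and none to 8730. It carries few symbols (1580), so families were collected by symbol, by genome, or from locus lists written from general knowledge of the family. A family collected by symbol holds only the members that the annotation names, and its counts describe that part.

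Differences were fitted with limma 3.58.1 in R 4.3.3 on log2(signal + 16), with 1 mean for each of 7 groups over 15 arrays (8 residual and 6.34 prior degrees of freedom), two-sided. If a gene was absent on every array of its lower group, the fold is given as "at least", with absent signals set no lower than the dimmest present signal of that array. On simulated data for the untreated comparison over 22746 probe sets, 4%, 74%, 92% and 98% of log2 differences of 1, 2, 3 and 4 were recovered, with 6 false calls. The changed probe sets were drawn only from those above the median level, and the noise was normal and independent. Recovery for dim genes, and false calls from differences between whole arrays, were therefore not covered.

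The groups compared, the 13 gene lists and the families were chosen with earlier results of these data known. The symbol families were rewritten, and the locus lists written, after the files were opened and the largest differences seen. Named genes are the 15 largest differences in each direction among called, non-overlapping probe sets with 1 gene, plus members of lists and families and the genes said to be grouped afterwards. Alternatives were median centring, quantile normalization, offsets of 1 and 64, a detection filter, the 5 untreated arrays alone, a trended robust variance, 3'/5' ratios as covariates and leaving out arrays. The 3'/5' ratios were first taken from 1 set of control probe sets on the array and then from the other, which became the ratio used after the counts of both were seen. Both are reported.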

Additional observations from a re-analysis of the deposited data

Results flagged for a closer look

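For 4 members of the families and lists, the difference between the lines itself changed with BL (a limma interaction term, treated minus untreated), though none was called in the untreated lines. EXLA2, an expansin-like gene, differed by -4.12 ± 0.59 (limma adjusted p = 0.0226), from -1.14 untreated, and its signals were 18.7 and 4.9 on the ATHB15 BL arrays. AT1G73780, a lipid-transfer-like gene, differed by -3.73 ± 0.49 (limma adjusted p = 0.0185), from 0.75 untreated. The dirigent genes AT4G11210 and AT1G55210 differed by -3.55 ± 0.56 and -2.57 ± 0.46 (limma adjusted p = 0.0326 and 0.0495), from 0.03 and -0.86 untreated. The dirigent family thus held 4 members that were lower in untreated provascular cells and 2 others whose line difference moved with BL. With the replicate label as a block 0 probe sets were called for this term, and without 1 array 0 to 134 were.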

How the results depend on the processing

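The untreated count of 663 (52 higher, 611 lower) became 486 (109 and 377) with median centring, 450 (69 and 381) with quantile normalization, 274 (12 and 262) with an offset of 1, 310 (61 and 249) with an offset of 64, and 460 (8 and 452) with the 5 untreated arrays alone. With the 3'/5' ratio used in the text as a covariate, whose control probe sets were chosen after the counts of both sets were seen, it became 310 (14 and 296) for GAPDH, 338 (10 and 328) for UBQ and 78 (0 and 78) for actin. With the ratio of the other control probe sets, which was run first and is listed as an added alternative, it became 400 (21 and 379) for GAPDH, 736 (51 and 685) for UBQ and 225 (9 and 216) for actin, so the choice of control probe sets alone moves the count by more than 1.5 times for UBQ and actin. The detection filter gave 648 and the trended robust variance 779. Beside the 0 higher calls with the actin ratio, 2182 probe sets had an unadjusted limma p under 0.05 in either direction, and 2371 did beside the 0 higher calls without WOL control A. Leaving out 1 of the 5 untreated arrays gave 28 (without WOL control A) to 571 calls, with 0 to 72 higher and 28 to 526 lower. It gave 550 without ATHB15 control 1, 223 without ATHB15 control 2 and 342 without ATHB15 control 3. Leaving out 1 of the 4 arrays at 2 h of BL, which enter through the shared spread, gave 564 to 642 calls, 36 to 40 higher and 528 to 602 lower. No sign of the 30 named genes reversed under any of these settings. The 3415 calls of the treated lines became 3955 with centring and 845 to 2318 without 1 array. The 29 calls for the difference of the line differences became 67 with centring and 0 to 134 without 1 array (134 without WOL control A). No paired analysis was possible for the untreated lines because WOL arrays carry letters and ATHB15 arrays numbers. For the difference of the line differences the replicate block gave 0 calls. Deviations of equally labelled arrays correlated at 0.20 in WOL and at -0.04 and 0.06 in ATHB15, so the labels were not taken as pairs. Detection limits the lower side, since 303 of its 611 probe sets were absent on all ATHB15 control arrays. The causes of these changes were not tested.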
